A study of Mus musculus with 8 samples.

Results

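The immediate early and AP-1 genes were read in bulk RNA-seq of tumor-associated macrophages (TAMs). The set holds 10 genes chosen by name, Fos, Fosb, Jun, Junb, Egr1, Egr2, Atf3, Ier2, Dusp1 and Btg2, of which 9 are among the 26939 genes of the joined tables and Egr2 was not analysed here. Btg2 was put in the set for a rise seen in Unc93b1 3d/3d TAMs of these same data, so its values are given without a test in every comparison that uses 3d/3d libraries. The other genes were chosen as members of a known gene class, with earlier results of these data known.

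The study had 4 groups of 2 libraries. All mice were females of 8 to 14 weeks that carried orthotopic EO771 tumors, a mouse mammary cancer line, and TAMs were taken at day 21, after enzymatic digestion of the tumor, by sorting viable cells positive for CD45, CD11b and F4/80 and negative for Gr-1. The groups were WT control, WT αMARCO, Unc93b1 3d/3d control and Unc93b1 3d/3d αMARCO. WT mice were C57BL/6J, and Unc93b1 3d/3d mice carry a missense mutation in the chaperone UNC93B1 that leaves several endosomal Toll-like receptors without function in every cell type, not in macrophages alone. The αMARCO groups received 100 µg of a rat antibody to the scavenger receptor MARCO intravenously, first on day 3 and last on day 12, with 3 days between doses. What the control mice were injected with is not settled, since the labels give PBS or no treatment and the methods give an isotype antibody. Each control library was pooled from 3 mice. In 1 of the 3d/3d libraries the genotype field reads 3d/4d while its title reads 3d/3d. Whether the αMARCO libraries came from pools or single mice is not stated, so p-values measure the spread between these libraries only.

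Immediate early genes are switched on within minutes of a stimulus, without new protein synthesis, when kinases of the MAPK pathways activate transcription factors such as SRF with its ELK partners and CREB that already sit on their promoters. FOS and JUN proteins pair to form AP-1, which binds DNA and drives later genes, and JUNB, FOSB and ATF3 change the makeup of that dimer. DUSP1, a phosphatase, switches MAPKs off again. In macrophages these genes respond to Toll-like receptor ligands, cytokines and stress, and they are also known to rise during enzymatic digestion of tissue.

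Promoter sequences are shown because several of these genes moved together between groups. RefSeq windows (GRCm38.p6) of the 250 bases before the start were found for 7 of the genes measured, leaving out Egr1, which was not searched, and Ier2. The cAMP response element TGACGTCA, its shorter core TGACG, the AP-1 site TGACTCA, the CArG box bound by SRF and the TATA motif TATAAA were searched on both strands, and each full TGACGTCA also counts as TGACG. The core TGACG was in 6 of the 7 windows, against 17.8% of 32851 windows over all genes. The full TGACGTCA was in Dusp1 and Btg2 only, against 1.55% of all windows, and TATAAA in Fos only, against 12.4%. No window of the 7 held TGACTCA, found in 4.46% of all windows, or a CArG box, found in 1.47%. Bases farther upstream than 250 were not searched, so these genes may hold either motif outside the windows. Matches are to letters only, and which factor binds there was not measured. Capitals mark the matches in the windows of Fos and Atf3, whose cores end 61 and 2 bases from the start, of Dusp1 and Btg2, with the full element, and of Jun, with no match. The Atf3 window lies inside the longer extent the tables give for that gene.
Fos, chr12:85473640-85473889, plus strand: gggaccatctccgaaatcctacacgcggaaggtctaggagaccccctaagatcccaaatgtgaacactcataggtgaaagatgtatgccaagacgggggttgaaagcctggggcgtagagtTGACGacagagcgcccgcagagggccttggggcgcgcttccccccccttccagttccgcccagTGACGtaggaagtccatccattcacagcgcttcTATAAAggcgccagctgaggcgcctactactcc
Dusp1, chr17:26508473-26508722, minus strand: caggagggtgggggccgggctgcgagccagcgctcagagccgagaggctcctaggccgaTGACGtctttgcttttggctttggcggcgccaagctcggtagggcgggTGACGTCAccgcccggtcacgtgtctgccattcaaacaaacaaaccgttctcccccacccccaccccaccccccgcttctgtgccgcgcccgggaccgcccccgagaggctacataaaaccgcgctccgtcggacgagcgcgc
Btg2, chr1:134079156-134079405, minus strand: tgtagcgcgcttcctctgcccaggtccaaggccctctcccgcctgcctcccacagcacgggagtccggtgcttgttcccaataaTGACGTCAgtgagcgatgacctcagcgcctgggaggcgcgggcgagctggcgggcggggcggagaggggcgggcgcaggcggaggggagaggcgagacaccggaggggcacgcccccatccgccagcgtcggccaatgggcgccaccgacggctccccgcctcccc
Atf3, chr1:191183334-191183583, minus strand: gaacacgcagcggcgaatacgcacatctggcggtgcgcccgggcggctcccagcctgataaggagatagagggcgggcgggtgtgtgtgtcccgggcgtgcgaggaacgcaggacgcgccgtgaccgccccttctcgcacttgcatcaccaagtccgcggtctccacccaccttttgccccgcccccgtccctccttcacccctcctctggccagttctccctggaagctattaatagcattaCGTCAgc
Jun, chr4:95052223-95052472, minus strand: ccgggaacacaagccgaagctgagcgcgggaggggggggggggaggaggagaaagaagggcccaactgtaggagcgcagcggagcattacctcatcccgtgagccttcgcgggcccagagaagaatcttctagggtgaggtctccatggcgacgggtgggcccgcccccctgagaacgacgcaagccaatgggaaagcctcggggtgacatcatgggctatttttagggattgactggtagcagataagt

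Before the group values, 1 library stood apart. Unc93b1 3d/3d αMARCO replicate 2 had 17094 genes with at least 3 counts, against 18605 to 20164 in the others. Its 10 most abundant genes took 7.21% of counts, against at most 5.97%. The SD of the log2 difference between the replicates of its group was 0.717 over 10478 genes with a mean of at least 5 CPM (library-scaled counts), against 0.198 to 0.274 in the other groups. That difference ran with gene length. With genes split by length into 5 bins of like size, its median was 0.68 in the shortest bin and −0.49 in the longest, while the bin medians of the other groups lay between −0.04 and 0.07. The αMARCO results in 3d/3d TAMs are therefore given with and without this library. Total counts were 15182618 to 26411936 per library. The 12 macrophage markers summed to between 12012 and 18573 CPM with none at 0, while T cell markers summed to between 9.4 and 166 CPM. Unc93b1 itself, whose missense allele a count cannot check, was at 848 and 965 CPM in WT control and 539 and 660 CPM in 3d/3d control. Marco was below 1 CPM in every library.

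These genes were among the most abundant transcripts of the sorted cells. Together the 9 genes took between 0.720% and 1.33% of all counts. Per length, as the FPKM in the tables, Fos was highest, at 649 to 1620 FPKM and between rank 23 and rank 45 of all genes. Junb followed at 589 to 1378 FPKM, Dusp1 at 405 to 921 FPKM, Jun at 379 to 525 FPKM and Atf3 at 274 to 593 FPKM. The ranges of neighbours in this order overlapped. Btg2, Fosb and Ier2 came lower, with highest values of 370, 218 and 236 FPKM, and Egr1 was far below the rest at 14.6 to 24.4 FPKM. FPKM is comparable across the tables because 1 set of size factors over the 8 libraries scales it.

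**Figure D1:**
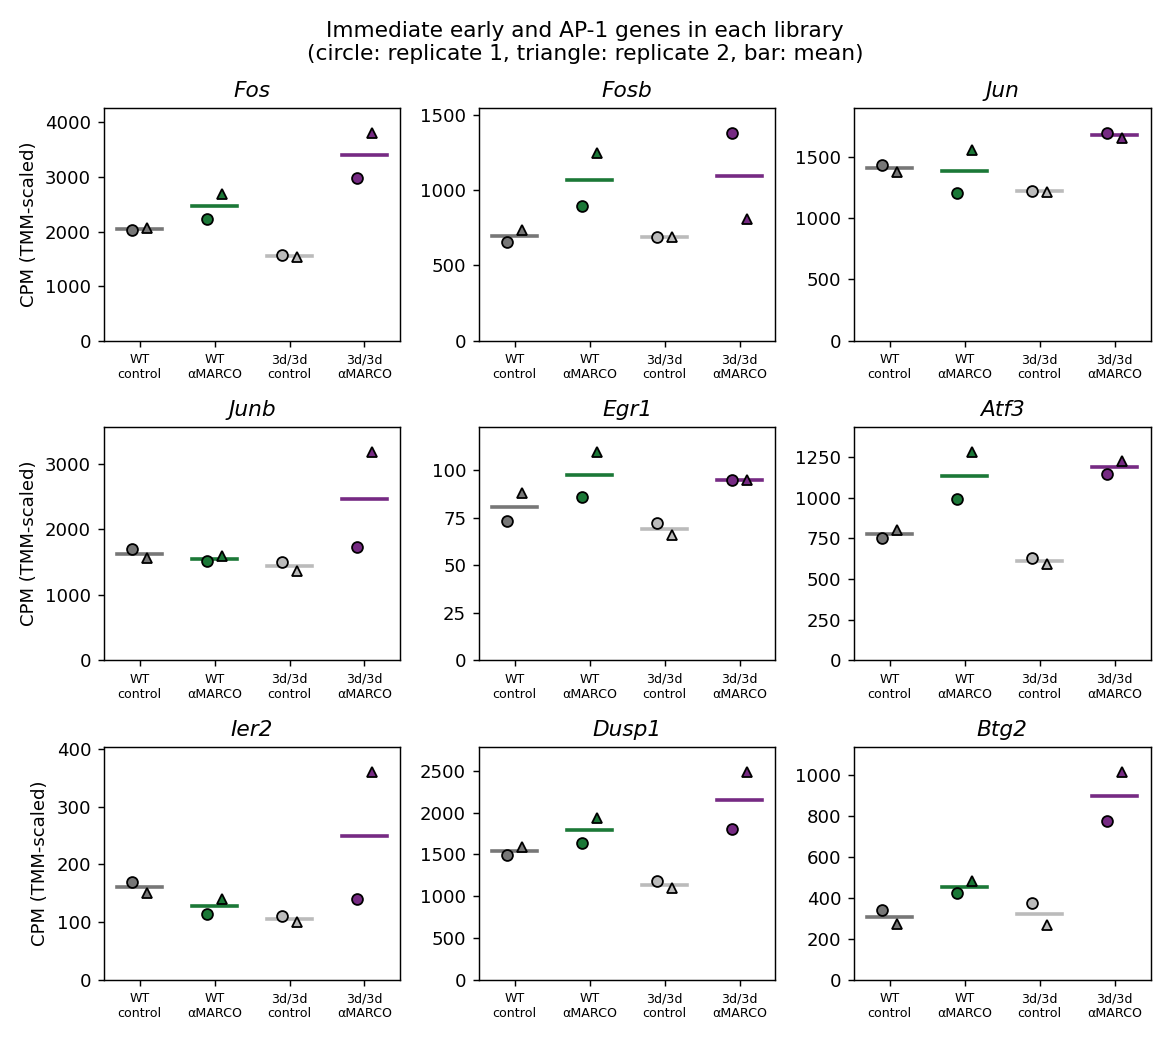
CPM of each gene (y axis, from 0, TMM-scaled) in the 4 groups (x axis), with a circle for replicate 1, a triangle for replicate 2 and a bar for their mean. In 3d/3d TAMs both αMARCO libraries lie above both control libraries for all 9 genes, a state that 19.7% of all genes shared. Btg2 is 1 of the 9 and was chosen for a rise in 3d/3d TAMs. Junb and Ier2 reach 3176 and 360 CPM in replicate 2 only.

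Fos (ENSMUSG00000021250, chr12:85473890-85477273), the founding FOS subunit of AP-1, was at 2032 and 2071 CPM in WT control and 1572 and 1536 CPM in 3d/3d control. With αMARCO it was at 2230 and 2697 CPM in WT and 2976 and 3816 CPM in 3d/3d. The 3d/3d libraries were thus both the lowest, without antibody, and the highest, with it, and none of the 4 groups overlapped another. Fosb (ENSMUSG00000003545, chr7:19302696-19310051), a FOS paralog, was at 657 and 733 CPM in WT control and 690 and 689 CPM in 3d/3d control. It reached 893 and 1246 CPM in WT αMARCO and 1384 and 807 CPM in 3d/3d αMARCO. Its control groups coincided, and both antibody groups lay above them with wide spread.

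Jun (ENSMUSG00000052684, chr4:95049034-95052222), the main dimer partner of FOS, was at 1439 and 1379 CPM in WT control, 1224 and 1218 CPM in 3d/3d control, 1210 and 1559 CPM in WT αMARCO and 1702 and 1660 CPM in 3d/3d αMARCO. It varied least of the FOS and JUN genes, and its WT groups overlapped. Junb (ENSMUSG00000052837, chr8:84974484-84978718), a JUN paralog that can restrain JUN, was at 1694 and 1553 CPM in WT control, 1498 and 1363 CPM in 3d/3d control and 1510 and 1592 CPM in WT αMARCO. In 3d/3d αMARCO it was at 1731 CPM in replicate 1 and 3176 CPM in replicate 2, so the height of that group rested on the library that stood apart. The counting was not stated to use strand, and Jun overlaps the antisense gene Junos and Junb overlaps Prdx2, with means of 12.9 and 120 CPM, whose reads cannot be told apart from theirs where they overlap.

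Atf3 (ENSMUSG00000026628, chr1:191170296-191218039), a stress-induced bZIP factor that represses many inflammatory genes, was at 749 and 803 CPM in WT control and 627 and 594 CPM in 3d/3d control. It was at 991 and 1279 CPM in WT αMARCO and 1144 and 1226 CPM in 3d/3d αMARCO. Both antibody groups lay above both control groups and overlapped each other. Egr1 (ENSMUSG00000038418, chr18:34859823-34864984), a zinc finger factor induced through SRF, was at 73.4 and 88.2 CPM in WT control, 72.2 and 65.9 CPM in 3d/3d control, 85.8 and 110 CPM in WT αMARCO and 94.9 and 95.2 CPM in 3d/3d αMARCO. It was the least abundant gene of the set, and its WT groups overlapped.

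Ier2 (ENSMUSG00000053560, chr8:84661331-84662852), an immediate early nuclear protein, was at 170 and 151 CPM in WT control and 110 and 99.4 CPM in 3d/3d control. It was at 114 and 140 CPM in WT αMARCO, and at 139 CPM in replicate 1 and 360 CPM in replicate 2 of 3d/3d αMARCO. Antibody libraries thus lay below controls in WT and above them in 3d/3d. Dusp1 (ENSMUSG00000024190, chr17:26505590-26508519) was at 1497 and 1586 CPM in WT control, 1179 and 1100 CPM in 3d/3d control, 1640 and 1937 CPM in WT αMARCO and 1803 and 2489 CPM in 3d/3d αMARCO. Its 3d/3d control libraries were the lowest of the 8. Btg2 (ENSMUSG00000020423, chr1:134075170-134079120), an antiproliferative BTG/TOB protein that is also a p53 target, was at 340 and 272 CPM in WT control, 376 and 268 CPM in 3d/3d control, 424 and 482 CPM in WT αMARCO and 775 and 1017 CPM in 3d/3d αMARCO. Its control groups overlapped, and only the antibody groups stood apart.

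The first comparison asked what loss of endosomal Toll-like receptor function did in TAMs of control mice. Of 8 tested genes, 7 had lower values in 3d/3d control TAMs, and 1 of them was called. A call needed both an adjusted p no higher than 0.05 (edgeR's quasi-likelihood test, Benjamini-Hochberg over all genes tested) and a log2 value at least 0.5 from 0. Ier2 fell 1.51-fold (log2 −0.60, SE 0.10, adjusted p 0.00564), where 6.58% of 15600 genes were called lower. Dusp1 (log2 −0.42, SE 0.10, adjusted p 0.0239), Fos (log2 −0.39, SE 0.10, adjusted p 0.0298) and Atf3 (log2 −0.33, SE 0.10, adjusted p 0.0484) passed on p but not on size. With Ier2 that makes 4 of 8 past the p threshold in the lower direction, against 10.2% of all genes. Egr1, Jun and Junb had log2 values of −0.21, −0.19 and −0.17 with adjusted p from 0.214 to 0.322, and Fosb was at 0.00. Both 3d/3d libraries lay below both WT libraries for 7 of 8 genes, a state that 33.2% of all genes shared. The median over the 8 was −0.27, against 0.00 over all genes. Btg2, not tested, had a log2 difference of 0.09 with an SE of 0.18.

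That genotype difference moved with other cell signals. T cell markers (12 genes) summed to 151 and 166 CPM in WT control but 30.9 and 15.2 CPM in 3d/3d control, and mature dendritic cell markers (10 genes) to 1358 and 833 CPM but 327 and 287 CPM. Nonclassical monocyte markers (8 genes) summed to 908 and 984 CPM against 210 and 185 CPM. Cd300e alone held 557 and 616 CPM of the WT control sums and little of the 3d/3d sums. Of the 8 genes, 6 were lower in 3d/3d control without overlap, and 4 were called lower. Cx3cr1 went the other way, from 14.8 and 16.6 CPM in WT control to 24.7 and 33.99 CPM in 3d/3d control. The part of these marker lists in the lower immediate early genes was not tested. In bulk samples fewer cells of a type and less RNA per cell cannot be told apart. Ier2 lost its call when all 8 libraries were fitted in 1 model (adjusted p 0.467). Under a correction for gene length per library it stayed past p with a log2 of −0.47, below the fold threshold. The main fit had 4 of 8 genes past the p threshold. That count was 0 in the joint model and 1 under the length correction. With 1 control library left out, log2 values were −0.41 to −0.36 for Fos, −0.47 to −0.36 for Dusp1 and −0.39 to −0.28 for Atf3. In these fits Fos and Atf3 never stayed past the p threshold, and Dusp1 did so in only some.

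The second comparison asked what αMARCO did in WT TAMs. Of 9 genes, 3 rose, Fosb, Btg2 and Atf3, where 8.91% of 15630 genes were called higher. Btg2 was chosen from these data in a contrast that is not stated. Its WT test, and the counts that include it, may therefore use values of that choice. Fosb rose 1.55-fold (log2 0.63, SE 0.16, adjusted p 0.0178), Btg2 1.49-fold (log2 0.57, SE 0.12, adjusted p 0.00557) and Atf3 1.47-fold (log2 0.56, SE 0.12, adjusted p 0.00819). The other genes of the set did not follow. Egr1, Fos and Dusp1 had log2 values of 0.28, 0.27 and 0.22 with adjusted p of 0.149, 0.0934 and 0.143, Jun and Junb were at −0.02 and −0.06, and Ier2 went the other way at −0.33 (SE 0.11, adjusted p 0.0405), under the fold threshold. Antibody libraries lay above controls for 5 of 9 genes, against 34.1% of all genes. The median was 0.27, against −0.01 over all genes.

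All 9 genes were higher in WT αMARCO replicate 2 than in replicate 1, and the WT calls depended on that library. Without it Atf3 was at 0.36, Fosb at 0.37 and Btg2 at 0.47, with adjusted p of 0.0652, 0.0646 and 0.0503, and 0 of the 3 calls were left. Fosb also lost its call without WT control replicate 1 (log2 0.55, adjusted p 0.0969), and Btg2 fell below the fold threshold without WT control replicate 2, at 0.41. Fitting all 8 libraries in 1 model left 0 calls. T cell markers summed to 14.4 and 22.6 CPM and mature dendritic cell markers to 401 and 481 CPM in WT αMARCO, below WT control. Mitochondrial transcripts took 1.03% to 1.25% of counts in the control libraries and 2.37% and 2.74% in WT αMARCO. Their part in these values was not tested.

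The third comparison asked for the same antibody effect where endosomal Toll-like receptors do not work. All 8 genes with a test had higher values with αMARCO in 3d/3d TAMs, with no overlap between the groups, a state that 19.7% of all genes shared. None was called, and neither was any of the 15428 genes tested (0% called). Fos was 2.20-fold higher (log2 1.14, SE 0.31), Ier2 2.40-fold (log2 1.26, SE 0.46), Atf3 1.95-fold (log2 0.96, SE 0.26) and Dusp1 1.89-fold (log2 0.92, SE 0.31). Junb, Fosb, Jun and Egr1 had log2 values of 0.79, 0.67, 0.47 and 0.47. The adjusted p was 0.823 for each gene, and 4 of 8 had an unadjusted p below 0.05, against 744 of all genes (4.82%). DESeq2 called Fos (adjusted p 0.0323) among 52 genes over all (0.422%). The median of the 8 genes was 0.86, against 0.03 over all genes. Btg2 was 2.80-fold higher (log2 1.49, SE 0.31), the highest value of the set. It is given without a test because the gene was chosen for a rise in 3d/3d TAMs, in a contrast not stated.

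Without 3d/3d αMARCO replicate 2 the spread shrank, and 4 of the 8 genes rose, against 1.59% of 16754 genes called higher. These were Fosb (log2 1.01, SE 0.16, adjusted p 1.45e-06), Fos (log2 0.94, SE 0.17, adjusted p 3.48e-05), Atf3 (log2 0.91, SE 0.15, adjusted p 1.24e-05) and Dusp1 (log2 0.66, SE 0.16, adjusted p 0.00553). Egr1 was at 0.46 with an adjusted p of 0.0325, under the fold threshold, and Jun at 0.48, Ier2 at 0.41 and Junb at 0.28 did not pass. Btg2 was at 1.27. This fit leaves 1 αMARCO library, which is assumed to vary like the others. The spread between the αMARCO replicates does not enter it, so its calls cannot show that the rise is robust. Without replicate 1 instead, 5 of 8 genes were called (Fos, Junb, Atf3, Ier2 and Dusp1), but so were 16.9% of all genes in that direction, and Fosb was at 0.24. The same limit holds there. With each of the 4 control and αMARCO libraries left out in turn, log2 values were 0.94 to 1.31 for Fos, 0.91 to 1.02 for Atf3 and 0.66 to 1.14 for Dusp1. They ranged from 0.28 to 1.165 for Junb, 0.41 to 1.79 for Ier2 and 0.24 to 1.01 for Fosb.

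Other signals also moved between these groups. T cell markers summed to 30.9 and 15.2 CPM in 3d/3d control and 9.4 and 11.6 CPM in 3d/3d αMARCO, with none of the 12 at 0. Classical monocyte markers (5 genes, none at 0) summed to 831 and 580 CPM without and 975 and 1283 CPM with the antibody. Mature dendritic cell markers summed to 327 and 287 CPM without and 369 and 390 CPM with it. Of these 10 genes, 1 was at 0 in each control library and none in the αMARCO libraries. Only 3 of the 9 tested had a positive log2 value. Their median was −0.36, or −0.55 without 3d/3d αMARCO replicate 2. Cd83 alone went from 131 and 137 CPM to 218 and 251 CPM. Mitochondrial transcripts took 1.25% and 1.18% of counts in 3d/3d control and 2.06% and 1.39% in 3d/3d αMARCO. Their part in these values was not tested.

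**Figure D2:**
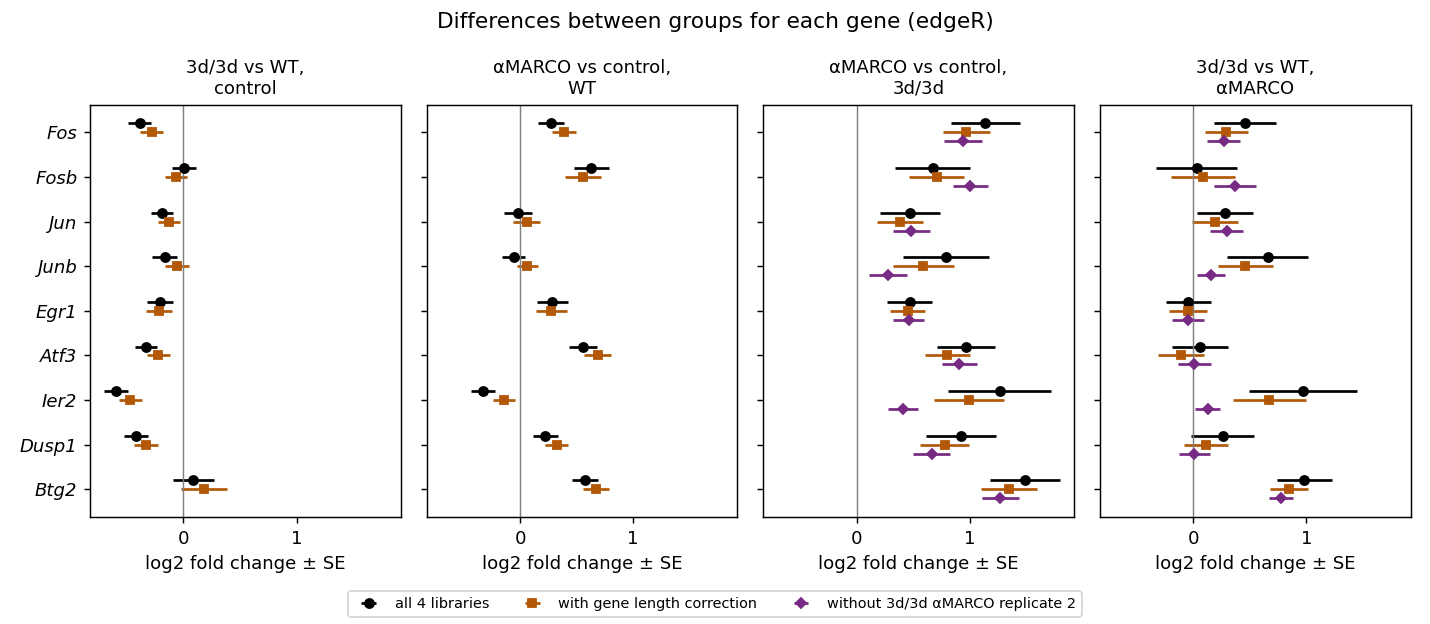
Log2 fold change of each gene (x axis) with its SE in 4 comparisons, from the 4 libraries of each (circles), with a correction for gene length (squares) and, where it applies, without 3d/3d αMARCO replicate 2 (diamonds). In the third panel all 9 circles lie right of 0, among them Btg2, which was chosen for a rise in 3d/3d TAMs. The diamonds of Ier2 (0.41) and Junb (0.28) lie far from their circles (1.26 and 0.79).

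Single genes of the set split unevenly between the 3d/3d αMARCO replicates. Ier2, the shortest at 1522 bases, was 2.59-fold higher in replicate 2 (log2 1.37), and Fosb, the longest at 6243 bases, was lower there (log2 −0.78). The median of all genes in their length bins was 0.68 and −0.19. Junb at 2301 bases had a difference of 0.88, Fos at 2352 bases 0.36 and Atf3 at 2154 bases 0.10, all in the bin with a median of 0.68. Egr1, at 4484 bases, had 0.00 against a median of 0.02. Correcting each library for gene length, chosen after seeing the data, brought the αMARCO difference in 3d/3d TAMs to 0.97 for Fos, 0.80 for Atf3, 0.78 for Dusp1, 0.99 for Ier2 and 1.34 for Btg2, with a median of 0.74 over the 8 tested genes and 0 called. The values thus remained above 0 for all of them.

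**Figure D3:**
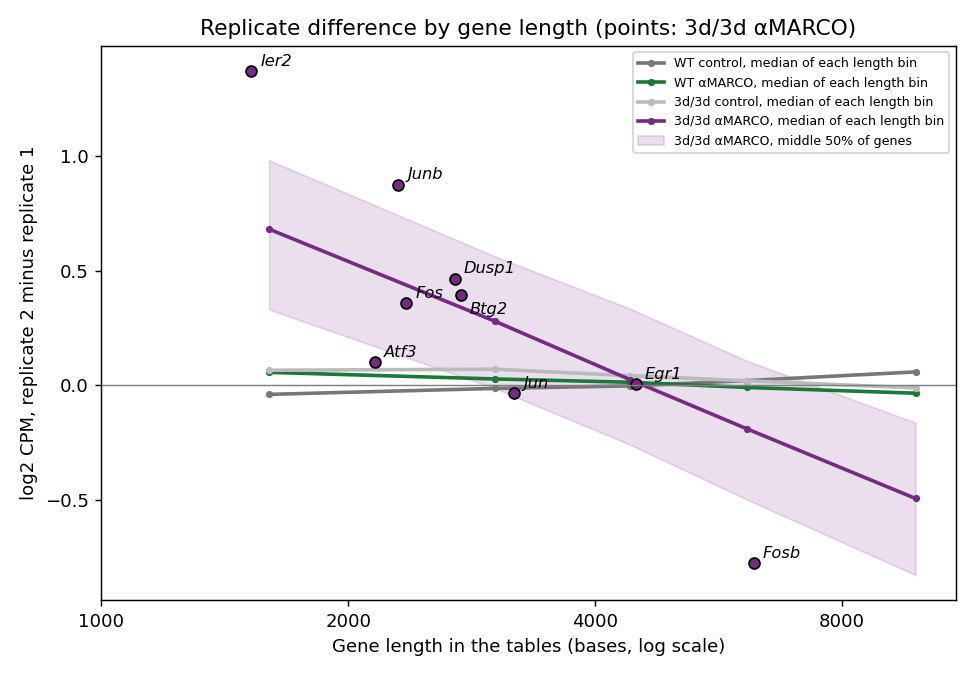
Difference in log2 CPM between replicate 2 and replicate 1 (y axis) by gene length (x axis, log scale), as medians of 5 length bins for the 4 groups (lines), the middle 50% of genes in 3d/3d αMARCO (band) and the single genes of the set in that group (points). The 3d/3d αMARCO line runs from 0.68 to −0.49, while the other lines stay between −0.04 and 0.07, and the points of that group run from Ier2 (1.37) to Fosb (−0.78).

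Whether the antibody effect differed by genotype was tested as an interaction over all 8 libraries. The difference, 3d/3d minus WT, was positive for all 8 tested genes, with a median of 0.59 against 0.04 over all genes, and none of the 16620 genes was called (0%), while 2549 (15.3%) had an unadjusted p below 0.05 and DESeq2 called 197 (1.47%). Ier2 had the highest value (log2 1.59, SE 0.52, adjusted p 0.318), followed by Fos (0.86, SE 0.28), Junb (0.84, SE 0.38) and Dusp1 (0.70, SE 0.29), with adjusted p of 0.318, 0.327 and 0.322. Of the 8 genes, 3 had an unadjusted p below 0.05. Fosb, called in WT, had a difference of 0.05 (SE 0.38), and Atf3 0.41 (SE 0.25). Btg2, not tested, was at 0.91. Without 3d/3d αMARCO replicate 2, Ier2 was called at 0.75 (adjusted p 0.0261), where 1.79% of all genes were called higher, and Fos was at 0.68 with an adjusted p of 0.0513. Without replicate 1, Fos, Junb, Ier2 and Dusp1 were called, among 17.9% of all genes.

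The last comparison set 3d/3d against WT TAMs of αMARCO-treated mice. None of 8 genes was called, and none of 15722 genes over all (0%), with 1076 (6.84%) at an unadjusted p below 0.05 and 198 (1.25%) called by DESeq2. Both 3d/3d libraries lay above both WT libraries for Fos, Jun and Junb, 3 of 8 genes, against 22.2% of all genes. Log2 differences, 3d/3d minus WT, were 0.97 (SE 0.47) for Ier2, 0.66 (SE 0.36) for Junb, 0.46 (SE 0.28) for Fos, 0.28 for Jun and 0.26 for Dusp1, and within 0.06 of 0 for Atf3, Fosb and Egr1, with adjusted p from 0.709 to 0.976. Without 3d/3d replicate 2, Ier2 was at 0.13, Junb at 0.16 and Fos at 0.27. Without replicate 1, Ier2, Junb (1.03) and Fos (0.63) were called, among 18.5% of all genes. Btg2 differed by 0.98 (SE 0.24), 0.77 without replicate 2, and its 4 αMARCO libraries did not overlap by genotype. The comparisons share libraries, so the lower 3d/3d control values enter both the genotype difference among controls and the 3d/3d antibody effect.

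The other genes of the pathway were read from lists, and each call named from them had an adjusted p of at most 0.0387. Among 13 other AP-1 and related bZIP factors, 1 rose and 4 fell in 3d/3d control TAMs (6.58% of all genes fell), with a median of −0.28. Batf3, needed for one dendritic cell lineage, fell from 57.7 and 65.1 CPM to 11.9 and 13.6 CPM (log2 −2.25, adjusted p 1.14e-05), Batf had a log2 of −1.13 and Atf4, the integrated stress response factor, −0.67, while Mafg rose by 0.60. The dendritic cell marker sums above moved with Batf3, and Mafg fell below the fold threshold without WT control replicate 1 (0.48). In WT TAMs αMARCO raised Mafg (0.86) and Atf7 (0.59) and lowered Batf3 (−0.83) and Batf (−0.73), 2 in each direction. Over all 15630 genes, 8.91% were called higher and 3236 genes were called in either direction. In 3d/3d TAMs 0 were called and the median was 0.14, or 0.05 with 0 called when 3d/3d αMARCO replicate 2 was left out.

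The other immediate early genes followed the set where WT and 3d/3d controls were compared. Of 29 tested, 1 rose and 8 fell in 3d/3d control (6.58% of all genes fell), with a median of −0.37, and 22 had both 3d/3d libraries below both WT libraries (33.2% of all genes). Arc, an effector best known from neurons, had a log2 of −1.79, Nfkbia, the inhibitor of NF-κB, −1.45 and Klf2, a factor that quiets macrophages, −1.39, while Zfp36l1 was at 0.62. In WT TAMs αMARCO raised 4, among them Egr3 (0.84), Per1 (0.69) and Klf2 (0.68), and lowered 4, among them Arc (−2.65), Cyr61 (−1.59) and Ppp1r15a (−0.92). The median was 0.00. Of all 15630 genes, 8.91% were called higher and 3236 were called in either direction. In 3d/3d TAMs 22 of 29 had a positive log2 value and 19 had no overlap in that direction (19.7% of all genes), with a median of 0.54 and 0 called. Without 3d/3d αMARCO replicate 2 the median was 0.37 and 11 were called higher (1.59% of all genes). Zfp36l1 lost its call without WT control replicate 2 (0.46). Egr3 lost it without WT control replicate 2 (0.72) or WT αMARCO replicate 1 (0.56), and Klf2 lost its WT call without either WT control library (0.55 and 0.81) or WT αMARCO replicate 2 (0.40).

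Genes upstream of the set and its feedback moved in both directions or little. Among 14 MAPK feedback inhibitors, Dusp8 (1.10) and Dusp6 (0.60), a phosphatase for ERK, rose in 3d/3d control, and Dusp14 (−2.64), Dusp2 (−1.59) and Dusp10 (−0.97) fell (6.58% of all genes fell). Dusp14 and Dusp8 had low levels. Dusp14 was at 1.95 and 2.77 CPM in WT control and 0.44 and 0.30 CPM in 3d/3d control. Dusp8 was at 2.74 and 2.60 CPM in WT control and 6.66 and 4.72 CPM in 3d/3d control. In WT TAMs αMARCO lowered Dusp14 (−1.71) and Dusp4 (−0.72). Among 21 genes of MAPK and SRF input, Mkl2, a partner of SRF, rose by 0.51 and Map3k8, the kinase that links Toll-like receptors to ERK, fell by 0.94 on the log2 scale in 3d/3d control, and αMARCO raised Elk4 (0.78) and Map2k3 (0.63) in WT. In 3d/3d TAMs αMARCO gave 0 calls in both lists, with medians of 0.04 and 0.01. With 3d/3d αMARCO replicate 2 left out the medians were 0.07 and 0.06, with 0 and 1 called higher. Several of these calls rested on 1 library. Dusp8 lost its call without WT control replicate 1 or 2 (1.13 and 1.05) or 3d/3d control replicate 1 (0.83), and Dusp10 without WT control replicate 2 (−0.76) or 3d/3d control replicate 2 (−0.72). Dusp6 (0.44) lost it without WT control replicate 2, Mkl2 (0.47) without WT control replicate 1, and Dusp14 its WT call (−1.21) without WT αMARCO replicate 1.

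For Btg2 the lists of its family and of p53 targets were read. None of 4 other BTG/TOB genes was called in any comparison, and their median with αMARCO was 0.03 in WT and 0.15 in 3d/3d. Of 13 p53 targets tested, Mdm2 rose (0.73) and Phlda3 (−1.15), Gadd45a (−0.69) and Ccng1 (−0.60) fell with αMARCO in WT. Over all 15630 genes of that comparison, 8.91% were called higher and 3236 in either direction. In 3d/3d the median of the p53 targets was 0.01 with 0 called. The BTG/TOB median without 3d/3d αMARCO replicate 2 was 0.07 and the p53 target median −0.02, with 0 called in both. Of 14 heat shock and chaperone genes, which answer protein stress, αMARCO raised Hsp90aa1 (0.81), Dnaja1 (0.74) and Bag3 (0.58) and lowered Hspa5 (−0.54) in WT (8.91% of all genes rose). In 3d/3d their median was 0.51, with 10 of 14 not overlapping in the higher direction (19.7% of all genes) and 0 called. Without 3d/3d αMARCO replicate 2 the median was 0.52 and 5 were called higher (1.59% of all genes). Their summed level was 13738 and 14407 CPM in WT control, 12906 and 10575 CPM in 3d/3d control, 14445 and 18235 CPM in WT αMARCO and 16592 and 16547 CPM in 3d/3d αMARCO. Like the sum of the set, this sum was lowest in 3d/3d control. Of the 14 genes, 7 had both 3d/3d control libraries below both WT control libraries (33.2% of all genes), and 0 were called. The part of the heat shock genes in the values of the set was not tested. Single libraries ended the WT calls of Dnaja1 (0.63 and 0.84 without WT control replicate 1 and 2, 0.48 without WT αMARCO replicate 2), Bag3 (0.46 without WT control replicate 1, 0.38 without WT αMARCO replicate 2), Hsp90aa1 (0.70 without WT control replicate 1), and Hspa5 and Gadd45a (−0.41 and −0.58 without WT αMARCO replicate 1).

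**Figure D4:**
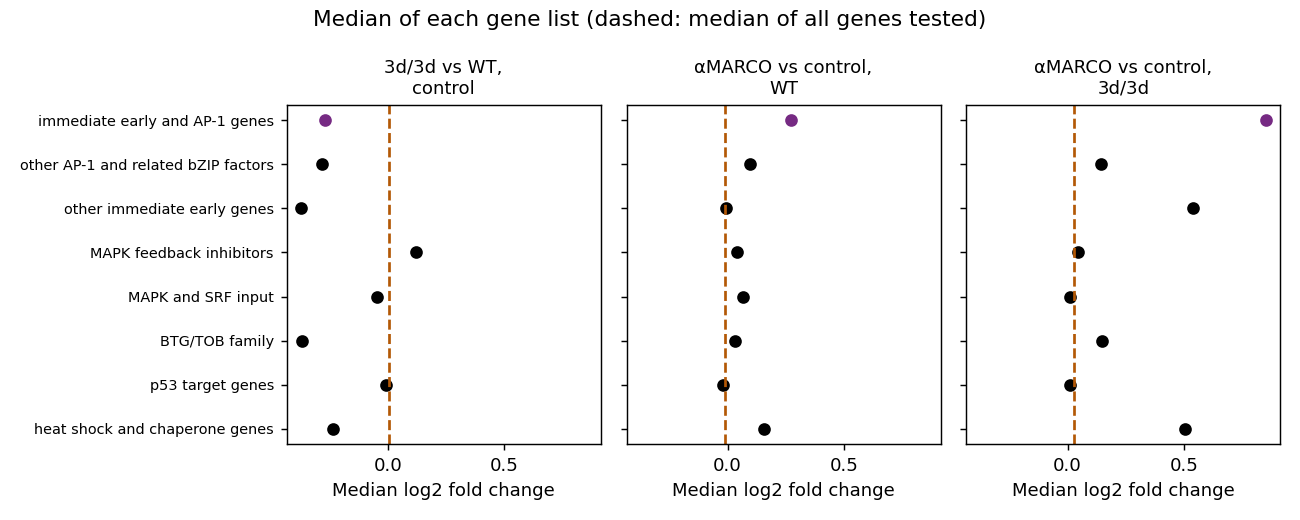
Median log2 fold change (x axis) of the immediate early and AP-1 genes (without Btg2 where 3d/3d libraries enter) and of 7 other lists, in 3 comparisons, with the median of all genes tested as a dashed line. With αMARCO in 3d/3d TAMs the set is at 0.86, the other immediate early genes at 0.54 and the heat shock genes at 0.51, while the p53 targets are at 0.01.

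Genes whose pattern over the 8 libraries was closest were found by the root mean square (RMS) difference of centred log2 CPM among 9053 other genes with a mean of at least 10 CPM. For Fos these were Ccrl2 (RMS 0.08), Rgs1 (0.08), Dusp1 (0.11), Gm6377 (0.12) and Rab10os (0.14), and Atf3 was at rank 9 (0.16). Rgs1, for example, was at 915 and 999 CPM in WT control, 703 and 719 CPM in 3d/3d control, 1205 and 1324 CPM in WT αMARCO and 1363 and 1799 CPM in 3d/3d αMARCO. Btg2, Ier2 and Fosb were at ranks 961, 1053 and 1601.

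The closest to Egr1 were Hspd1 (RMS 0.07), Map4k3 (0.08), Dus2 (0.09), Hsp90ab1 (0.09) and Krr1 (0.10), of which Hspd1 and Hsp90ab1 are chaperones. The closest to Btg2 were F630028O10Rik (0.13), Phlda1 (0.17), Osm (0.17), Plk3 (0.18) and Tlr2 (0.19). Plk3 was at 111 and 109 CPM in WT control, 132 and 116 CPM in 3d/3d control, 154 and 165 CPM in WT αMARCO and 244 and 291 CPM in 3d/3d αMARCO. No other gene of the set was among the 5 closest to Btg2 or to Egr1, and Fos, at rank 39, was the nearest of the set to Btg2. The patterns share libraries and depth and are a description only.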

How the data were processed

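Bulk RNA-seq of 8 TAM libraries was used. Single-cell data were not used here. The authors deposited raw counts per gene (poly-A RNA, GRCm38, fastp, HISAT2 2.0.5, featureCounts 1.5.0) in 3 tables, each with 4 libraries. The deposited FPKM equals the authors' counts per length scaled by DESeq2 size factors over the 8 libraries. A normalized signal that the authors made from counts with size factors (DESeq2 1.40.2) was also deposited and not used, and the same holds for their fold changes and p-values. Tables were joined by gene identifier. Of 95230 counts present in more than 1 table, 0 differed, and 11598 absent cells were set to 0.

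Counts were tested in R 4.3.3 with edgeR 4.0.16 (TMM, filterByExpr, robust quasi-likelihood) on the 4 libraries of each comparison, and on 8 for the interaction. CPM uses TMM over 8 libraries, so fold changes from the models can differ slightly from ratios of CPM. The floor of 3 counts equals 0.114 to 0.198 CPM and covers counting error only. The fits were tested on simulated data.

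The members and lists were chosen with earlier results of these data known. Outside the set, the genes named per list and comparison are up to 3 called genes in each direction with the largest fold change and no overlap between groups. For Fos, Egr1 and Btg2 the 5 closest genes are named. Alternatives were DESeq2 1.42.0, its size factors, other count filters and fold thresholds, all 8 libraries in 1 model, a replicate block, each library left out and, chosen after seeing the data, a gene length correction (lowess of the log2 CPM deviation, span 0.3).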

Additional observations from a re-analysis of the deposited data

Results flagged for a closer look

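Of the genes of the set and those named from the other lists, 4 had a reversed order, in which both αMARCO libraries lay on 1 side of both controls in WT and on the other side in 3d/3d TAMs. The share of all genes with such an order was not counted. Both αMARCO libraries lay above both controls for 34.1% of all genes in WT and 19.7% in 3d/3d. The 4 were picked by their order in the same libraries that the interaction test uses. That test passed for none of the 4 with all 8 libraries. Ier2 was lower with αMARCO in WT and higher in 3d/3d, with a difference of 1.59 (log2, SE 0.52, adjusted p 0.318). Atf4, among the other bZIP factors, went the same way at 0.99 (SE 0.36, adjusted p 0.318), with 282 and 317 CPM in WT αMARCO against 398 and 412 CPM in WT control, and 261 and 476 CPM in 3d/3d αMARCO against 249 and 255 CPM in 3d/3d control, so most of its 3d/3d side came from replicate 2. Dusp8 (−1.49, SE 0.46, adjusted p 0.318) and Mkl2 (−0.73, SE 0.40, adjusted p 0.368) went the opposite way. Mkl2 was at 38.3 and 39.4 CPM in 3d/3d control, 37.4 CPM in 3d/3d αMARCO replicate 1 and 18.7 CPM in replicate 2. Without 3d/3d αMARCO replicate 2 the differences were 0.75 for Ier2, 0.50 for Atf4, −1.46 for Dusp8 and −0.31 for Mkl2, with 1 library left in that group.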

How the results depend on the processing

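Counts of called genes of the set depended on the spread estimate. With all 8 libraries in 1 model, 0 of the set were called in any of the 4 comparisons, and genes over all fell to 364 for control genotype, 164 for αMARCO in WT and 1 in 3d/3d, with 108 for genotype under αMARCO. With no fold threshold the set had 4 calls for control genotype, and 5487 genes over all passed for αMARCO in WT. At a log2 of at least 1 the set had 0 calls in both, and 951 and 1366 genes over all passed. Under the gene length correction, chosen after seeing the data, the set had 0 calls for control genotype, and genes over all were 20 for genotype under αMARCO, 1 for αMARCO in 3d/3d and 3 for the interaction. DESeq2 gave 198, 52 and 197 genes over all for these, and 1 of the set (Fos) for αMARCO in 3d/3d. No count filter gave 107, 174 and 152, and also 1 of the set (Ier2). The other counts stayed within 1.5 times. Of 37 calls named from the other lists, 29 were lost in the joint model, 25 at a log2 of at least 1, 3 by DESeq2 and 2 under the length correction.

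Leaving out each library in turn moved the genes called over all from 1493 to 2232 (control genotype), 17 to 6366 (genotype under αMARCO), 1940 to 3951 (αMARCO in WT), 1 to 5500 (αMARCO in 3d/3d) and 0 to 6440 (interaction). The set's calls ranged over 1 to 1, 0 to 3, 0 to 3, 0 to 5 and 0 to 4. A single library then stands for its group, assumed to vary like the others. In the comparisons that use 3d/3d αMARCO replicate 1, the highest counts over all genes came without that library. For control genotype and αMARCO in WT they came without WT control replicate 2.

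Directions turned for values near 0. Fosb for control genotype was −0.00076 by DESeq2, −0.0037 without a count filter, −0.012 in the joint model and −0.071 under the length correction, and −0.082 to 0.075 with a library left out. Atf3 for genotype under αMARCO was −0.11 under the length correction and −0.12 to 0.26 with a library left out, Fosb −0.41 to 0.37 and Egr1 −0.21 to 0.15. For αMARCO in WT, Jun and Junb were 0.058 and 0.064 under the length correction, −0.22 to 0.16 and −0.13 to 0.00042 with a library left out. The interaction of Fosb was −0.021 with at least 10 counts in every library and −0.39 to 0.39 with a library left out. The cause was not tested. Of the other alternatives, 373 of 396 values of the set kept direction and call, and 182 of 216 with a library left out.

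Replicate numbers only share a number here, with 2 pairs a comparison and no stated common mouse or day. Deviations of same-numbered libraries correlated across genes at −0.14 to 0.22, and the replicate block gave 97 genes for genotype under αMARCO and 5 for αMARCO in 3d/3d, with the calls within the set changed in no comparison. Depth did not limit the set, whose lowest count in a library was 1150 (Egr1) and the number of libraries was 2 a group.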
